A study of Mus musculus with 2 samples.

Results

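Genes of fatty acid oxidation and ketogenesis were examined in villi of the mouse small intestine, the mucosal fingers whose epithelium absorbs fat, in a library labelled as lacking the Polycomb ligases Ring1a and Ring1b and in a control library. The members were 36 genes chosen by name from the pathway, and each was taken from the table of RefSeq transcripts by its symbol. Of these, 35 had a row, Acsl3 was not analysed here, and 30 were measured, meaning that the mean of the normalised read counts of both libraries was at least 20. The table held 20722 symbols in all, of which 6001 were measured.

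The dKO-labelled (double knockout) library came from a C57BL/6 mouse genotype with Rosa26-CreERT2, Cdkn2a-/-, Ring1a-/- and Ring1bf/f. The control library carried Rosa26-CreERT2 and Cdkn2a-/- alone, so an inducible Cre recombinase and the loss of Cdkn2a were shared by both. Rosa26 drives genes in nearly all tissues, so the recombinase was not confined to the epithelium. Both genotypes had 3 tamoxifen injections, and villi were taken 6 days later. The labels give neither the age of the mice nor the number of animals behind a library. Each genotype had 1 library, so no difference has a replicate check and no test between the genotypes was possible. Intervals are 95% exact counting intervals that cover counting error alone.

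Fatty acids enter cells through transport proteins and are activated to acyl-CoA by acyl-CoA synthetases. A carnitine shuttle brings long chains into mitochondria, where each turn of beta-oxidation passes through an acyl-CoA dehydrogenase, a hydratase, a hydroxyacyl-CoA dehydrogenase and a thiolase, and yields acetyl-CoA. Very long and branched chains are first shortened in peroxisomes. Ketogenesis joins acetyl-CoA into ketone bodies, and many genes of these pathways are known targets of the nuclear receptor PPAR-alpha in liver and intestine.

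The libraries held 1058196 reads (dKO-labelled) and 775827 reads (control). Ring1 had 10 reads in the dKO-labelled library and 10 in the control library, and Rnf2, which encodes Ring1b, had 82 and 59, a ratio of 1.25 (0.886 to 1.78). Counts over a whole transcript do not show which exons were deleted. Markers of absorptive enterocytes summed to 17848 reads in the dKO-labelled library and 18466 in the control library over 14 genes, none of them at 0. Apob, the apolipoprotein of chylomicrons, held much of the control sum, with 2133 reads in the dKO-labelled library and 6742 in the control library. The other 13 markers summed to 15715 reads in the dKO-labelled library and 11724 in the control library, a ratio of 1.21 (1.18 to 1.24), against 0.871 (0.853 to 0.889) with Apob. Among them were the disaccharidases Sis and Lct. Sis had 357 reads in the dKO-labelled library and 37 in the control library, and Lct had 847 and 184. Of 13 measured markers, Apob included, these were the 2 past 2-fold higher (15.4%, against 26.2% of all measured genes). Apob was the 1 past 2-fold lower, and 10 stayed within 2-fold, among them Krt20 (ratio 0.984) and Alpi (1.05). Treh, not measured, had 4 reads in the dKO-labelled library and 13 in the control library. The part of these markers in the results was not tested. Xist had 1 read in the dKO-labelled library and 80 in the control library, and the Y-linked Ddx3y had 131 and 0, so a difference of sex and one of genotype cannot be told apart here. The median log2 ratio of the measured genes, dKO-labelled over control, was 0.51 with the deposited size factors.

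Most members had a higher normalised count in the dKO-labelled library than in the control library. At least 2-fold higher were 20 of the 30 measured members (66.7%), against 26.2% of all measured genes, and 0 were at least 2-fold lower, against 4.18% of all measured genes. This split followed the scaling and was 10 higher and 2 lower with TMM, and 8 and 2 with the upper quartile. All measured genes then gave 664 higher and 652 lower of 5938 with TMM, and 477 and 903 of 5919 with the upper quartile. Among the 20 members, Angptl4, Slc27a2 and Etfb met the minimum mean only through the dKO-labelled library, so their calls are not independent of the filter. The median log2 ratio of the members was 1.17, which was 0.67 above that of the measured genes. Against that median, 10 members lay at least 2-fold higher (33.3%, against 11.8% of measured genes) and 2, Acadl and Slc25a20, at least 2-fold lower (6.67%, against 10.4%). The counting interval of the ratio lay above 1 for 25 members, against 52.5% of measured genes, below 1 for 3, against 12.1%, and held 1 for Plin2 and Slc27a4. In bulk tissue, fewer cells of a type and less RNA per cell cannot be told apart.

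**Figure D1:**
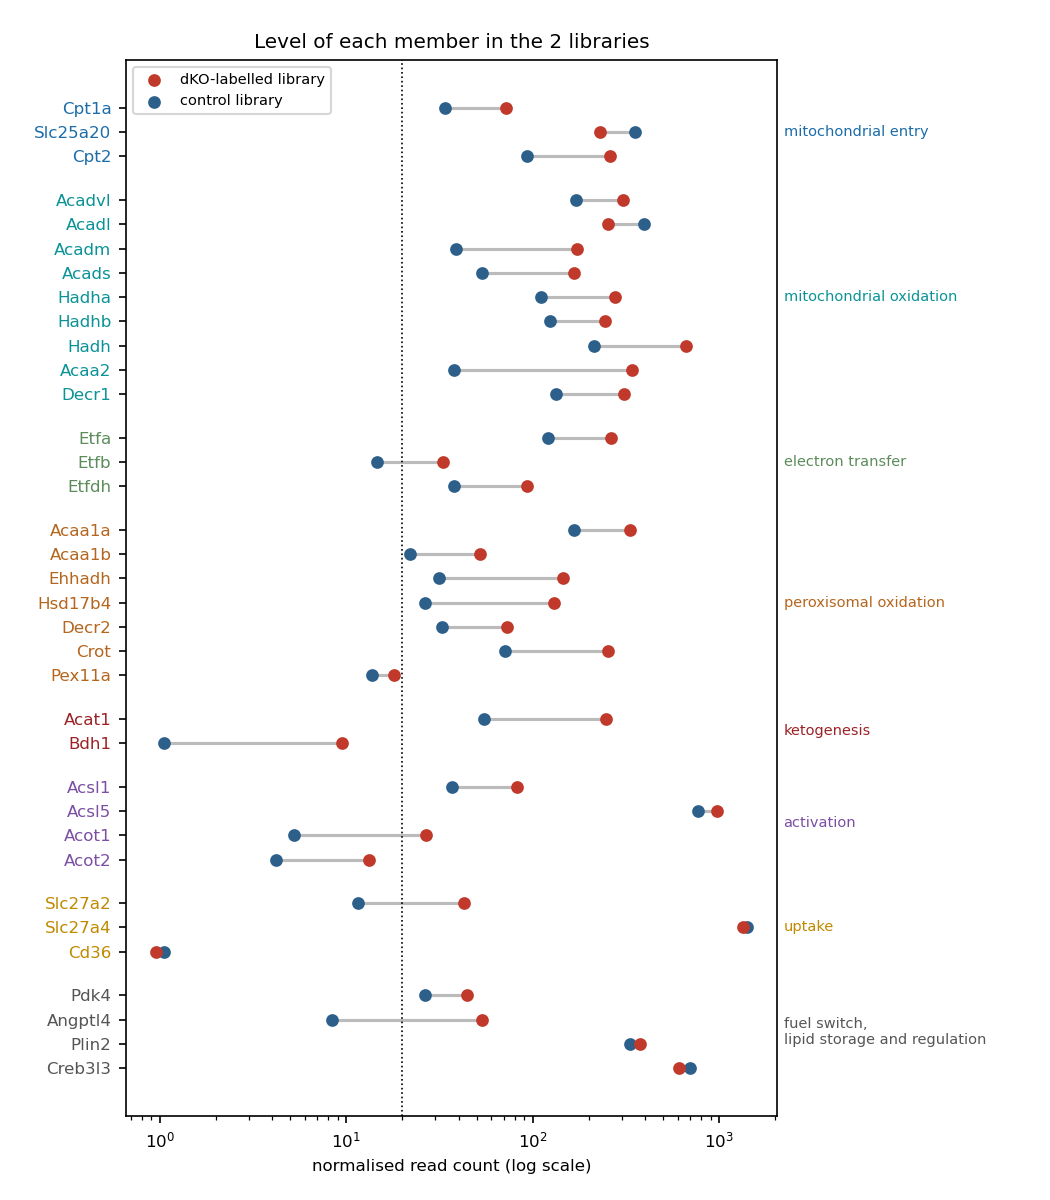
Normalised read count of each of the 35 members in the dKO-labelled library (red) and the control library (blue) on a log axis, grouped by role, with the dotted line at the minimum mean of 20. The red point lies to the right for most genes of mitochondrial and peroxisomal oxidation, to the left for Slc25a20, Acadl and Creb3l3, and close to the blue one for Slc27a4 and Plin2. Points near 1 stand for 0 reads, because the deposited values hold 1 added read.

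The carnitine shuttle did not move as a block. Cpt1a (NM_013495), the outer membrane carnitine palmitoyltransferase and the rate-controlling step of entry, had 75 reads in the dKO-labelled library and 31 in the control library, a 2.18-fold higher level after scaling (1.42 to 3.43). Cpt2 (NM_009949), which rebuilds acyl-CoA inside the mitochondrion, had 272 reads in the dKO-labelled library and 87 in the control library, 2.82-fold higher (2.21 to 3.63). Slc25a20 (NM_020520), the carnitine-acylcarnitine carrier that works between these enzymes, had 241 reads in the dKO-labelled library and 335 in the control library. It was thus 1.54-fold lower (1.30 to 1.83), while the enzymes on either side of it were more than 2-fold higher. Together the 3 genes had 588 reads in the dKO-labelled library and 453 in the control library, a ratio of 1.17 (1.03 to 1.33), a sum in which Slc25a20 had the most control reads.

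The acyl-CoA dehydrogenases, which open each turn of the cycle on chains of different length, also differed among themselves. Acadm (NM_007382), the medium-chain enzyme, had 180 reads in the dKO-labelled library and 36 in the control library, 4.51-fold higher (3.14 to 6.64). Acads (NM_007383), the short-chain enzyme, had 175 reads in the dKO-labelled library and 50 in the control library, 3.15-fold higher (2.29 to 4.41). Acadvl (NM_017366), the very-long-chain enzyme, had 319 reads in the dKO-labelled library and 161 in the control library, a ratio of 1.79 (1.47 to 2.17) that stayed within 2-fold. Acadl (NM_007381), the long-chain enzyme, stood on the other side, with 267 reads in the dKO-labelled library and 372 in the control library, 1.55-fold lower (1.32 to 1.82). Of the 4 genes, Acadl had the highest level per length in the control library, at 205 normalised reads per kilobase of transcript, against 78.7 for Acadvl, 28.7 for Acads and 19.0 for Acadm. In the dKO-labelled library the same levels lay closer together, at 133 for Acadl, 140.1 for Acadvl, 89.4 for Acads and 83.9 for Acadm.

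The trifunctional protein carries the next steps for long chains, and its subunits are encoded by Hadha and Hadhb. Hadha (NM_178878) had 289 reads in the dKO-labelled library and 104 in the control library, 2.50-fold higher (2.00 to 3.17). Hadhb (NM_145558) had 255 reads in the dKO-labelled library and 117 in the control library, a ratio of 1.96 (1.57 to 2.47) just under the 2-fold limit. The intervals of the 2 subunits overlapped. Of the 50-base stretches in the Hadhb transcript, 62.9% also occur in transcripts of other genes, mostly Gm13910, so its count is uncertain.

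Hadh, Acaa2 and Decr1 complete the mitochondrial steps. Acaa2 (NM_177470), the thiolase that releases acetyl-CoA, had 356 reads in the dKO-labelled library and 35 in the control library. At 9.17-fold higher (6.47 to 13.4) it had the highest ratio of the measured members, at percentile 98.9 of the log2 ratios of all measured genes. Hadh (NM_008212), the dehydrogenase for medium and short hydroxyacyl-CoA, had 699 reads in the dKO-labelled library and 201 in the control library, 3.13-fold higher (2.68 to 3.69). Per length, Hadh had the highest level in the dKO-labelled library of the 34 members with a known transcript length, at 371 normalised reads per kilobase, against 119 in the control library. Decr1 (NM_026172), which prepares unsaturated chains for the cycle, had 326 reads in the dKO-labelled library and 125 in the control library, 2.35-fold higher (1.91 to 2.91). Over the 9 genes of mitochondrial oxidation, 6 reached 2-fold higher (against 26.2% of all measured genes) and 0 reached 2-fold lower (against 4.18%), and the median log2 ratio was 1.31.

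Electron transfer flavoprotein accepts the electrons of the dehydrogenases and passes them to the respiratory chain through its oxidoreductase. Etfa, its alpha subunit, had 277 reads in the dKO-labelled library and 113 in the control library, 2.21-fold higher (1.77 to 2.77). Etfb, the beta subunit, had 34 reads in the dKO-labelled library and 13 in the control library, 2.36-fold higher with a wide interval (1.21 to 4.87). Etfdh, the oxidoreductase, had 97 reads in the dKO-labelled library and 35 in the control library, 2.50-fold higher (1.68 to 3.79). All 3 genes thus passed 2-fold at similar ratios, but 0 of them did so once the median of measured genes was subtracted.

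Promoter sequences are shown for genes on which the contrasts above turn, namely the dehydrogenases Acadm and Acadl with ratios on opposite sides of 1, the entry enzyme Cpt1a, and the stretch between the genes of the trifunctional subunits. Sequences are RefSeq's, on GRCm38.p6, and give the 250 bases before the annotated start, 5′ to 3′ on the gene's strand. Capitals mark AGGTCA or its reverse complement TGACCT, the hexamer bound by many nuclear receptors. The coordinates are chr3:153944644-153944893 on the minus strand for Acadm, chr1:66863310-66863559 on the minus strand for Acadl, chr19:3323051-3323300 on the plus strand for Cpt1a, and chr5:30154981-30155230 on the minus strand for Hadha.
Acadm: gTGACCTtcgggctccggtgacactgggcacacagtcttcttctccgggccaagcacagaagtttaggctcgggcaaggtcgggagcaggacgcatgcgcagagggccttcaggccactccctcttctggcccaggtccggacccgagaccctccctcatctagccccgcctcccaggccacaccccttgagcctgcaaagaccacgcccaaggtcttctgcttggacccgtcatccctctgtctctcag
Acadl: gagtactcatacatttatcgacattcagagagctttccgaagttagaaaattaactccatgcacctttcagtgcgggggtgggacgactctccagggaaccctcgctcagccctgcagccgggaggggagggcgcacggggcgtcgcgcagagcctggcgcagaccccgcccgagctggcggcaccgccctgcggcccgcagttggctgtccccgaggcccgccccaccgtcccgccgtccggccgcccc
Cpt1a: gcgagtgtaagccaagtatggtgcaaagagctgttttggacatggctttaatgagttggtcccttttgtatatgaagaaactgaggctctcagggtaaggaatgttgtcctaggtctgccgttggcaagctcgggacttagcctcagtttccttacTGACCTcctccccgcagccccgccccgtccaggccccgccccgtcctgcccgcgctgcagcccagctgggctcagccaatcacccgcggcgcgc
Hadha: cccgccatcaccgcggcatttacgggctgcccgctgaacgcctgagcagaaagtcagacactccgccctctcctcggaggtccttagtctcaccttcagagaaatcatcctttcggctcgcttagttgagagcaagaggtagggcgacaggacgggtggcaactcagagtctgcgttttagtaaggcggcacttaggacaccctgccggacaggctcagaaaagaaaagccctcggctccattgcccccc

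Hadha and Hadhb are annotated head to head, with 272 bases between their starts, and 228 bases of the Hadha stretch are the reverse complement of the Hadhb promoter stretch. The same DNA therefore lies upstream of both subunits, whose ratios were 2.50 and 1.96. Promoter sequences were matched for 25 of the 30 measured members, in 27 windows. The hexamer AGGTCA, searched on both strands, was in 6 of these windows (22.2%), against 11.8% of 5321 windows of measured genes and 14.0% of all 32851 windows. The windows with it belonged to Acadm, Acadvl, Cpt1a, Slc27a2, Plin2 and Creb3l3, whose log2 ratios ran between -0.20 for Creb3l3 and 2.11 for Acadm. The measured members Acaa2, Angptl4, Hsd17b4, Acat1 and Decr1 had no window and were not searched. Their log2 ratios were 3.13, 2.52, 2.26, 2.15 and 1.22, so these shares leave out the highest ratios. The DR1 element (that hexamer repeated after 1 base, with any base allowed at the T), the kind of site bound by PPAR with its partner RXR, was in 0 member windows, against 0.338% of all windows, and each such element overlaps the hexamer wherever its T is kept. At a share this low, 0 of 27 windows was the likely outcome for any genes, so it says nothing particular about the members. Median GC content was 58.8% over the member windows and 60.4% over windows of measured genes, and the median number of CpG dinucleotides was 12 and 17. A match here describes letters in a short window and does not show binding.

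Peroxisomal oxidation was higher throughout its measured genes. Of these 6 genes, 5 passed 2-fold higher, against 26.2% of all measured genes, and all 6 lay above the median of measured genes, with a median log2 ratio of 1.52. Hsd17b4 (NM_008292), the D-bifunctional protein, had 136 reads in the dKO-labelled library and 24 in the control library, 5.11-fold higher (3.29 to 8.25). Ehhadh (NM_023737), the L-bifunctional enzyme, had 152 reads in the dKO-labelled library and 29 in the control library, 4.72-fold higher (3.16 to 7.29). The 2 bifunctional enzymes, which carry the same hydration and dehydrogenation steps with opposite stereochemistry, thus had ratios within each other's interval. Crot (NM_023733), which puts the shortened chains onto carnitine for export to mitochondria, had 267 reads in the dKO-labelled library and 66 in the control library, 3.65-fold higher (2.78 to 4.85).

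The peroxisomal thiolases were higher to a lesser degree. Acaa1a had 347 reads in the dKO-labelled library and 158 in the control library, a ratio of 1.98 (1.64 to 2.40), and Acaa1b had 54 and 20, a ratio of 2.43 (1.43 to 4.29). These genes are close copies: 34.0% of the 50-base stretches of the Acaa1a transcript occur in Acaa1b, so the split of reads between them is uncertain. Decr2, a peroxisomal reductase for unsaturated chains, had 76 reads in the dKO-labelled library and 30 in the control library, 2.28-fold higher (1.48 to 3.61). Pex11a, which promotes peroxisome division, was too low to be measured, with 18 reads in the dKO-labelled library and 12 in the control library.

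Ketogenesis was represented by Acat1 and Bdh1. Acat1 (NM_144784), the mitochondrial acetoacetyl-CoA thiolase that makes the first precursor, had 259 reads in the dKO-labelled library and 51 in the control library, 4.58-fold higher (3.38 to 6.31). Bdh1, which reduces acetoacetate to beta-hydroxybutyrate, was not measured, with 9 reads in the dKO-labelled library and 0 in the control library. Genes outside the members were taken from a longer list of ketone body genes, 5 of them measured. Of these, 3 passed 2-fold higher (60.0%, against 26.2% of all measured genes) and 0 passed 2-fold lower. The log2 ratio of 1 lay below 0, and 1 was at least 2-fold lower relative to the median of measured genes. Acat2, a cytosolic thiolase, had 56 reads in the dKO-labelled library and 11 in the control library, 4.59-fold higher (2.38 to 9.71), and Slc16a1, a monocarboxylate carrier that also transports ketone bodies, had 155 and 68 (2.05-fold, 1.54 to 2.77). Acat2 met the minimum mean only through the dKO-labelled library, so its call is not independent of the filter.

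**Figure D2:**
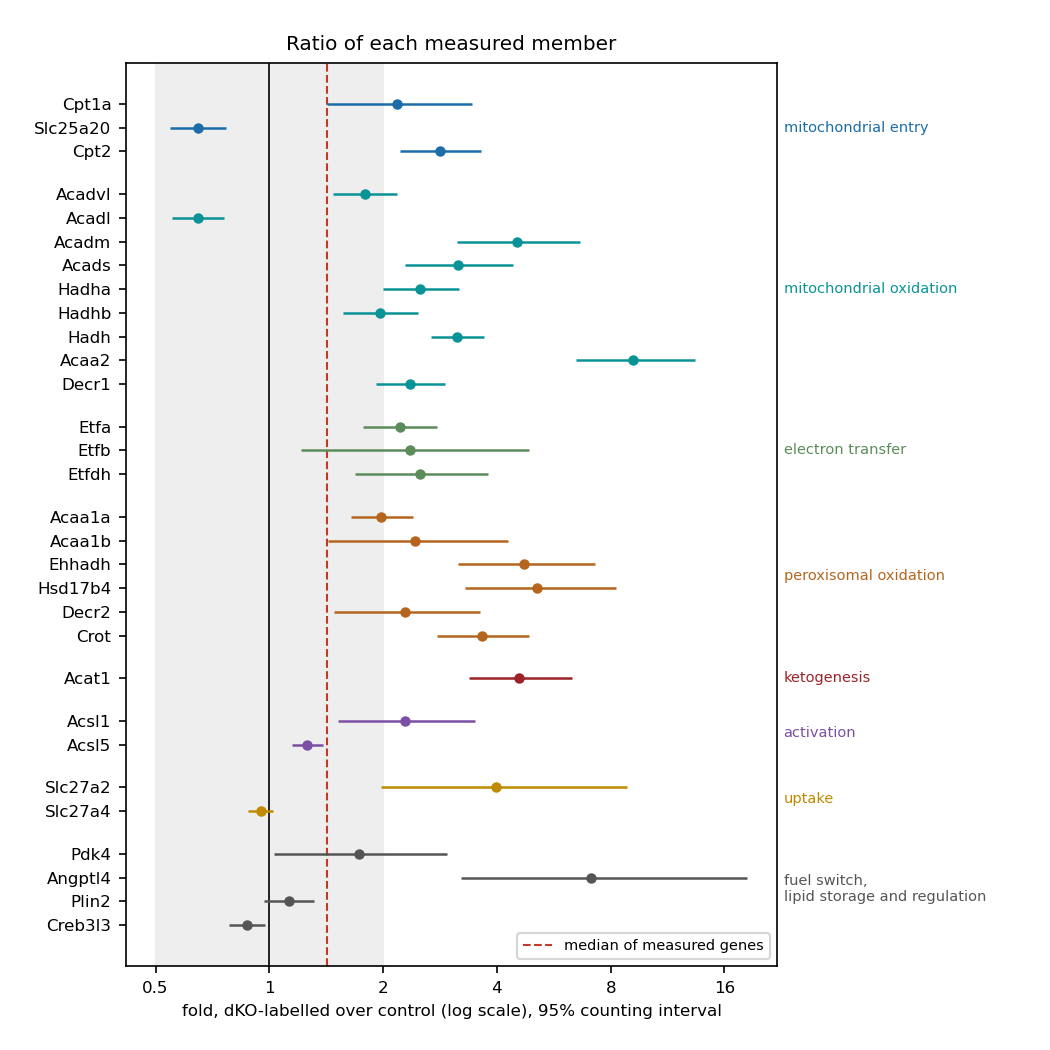
Fold of each of the 30 measured members, dKO-labelled over control, from recovered reads on a log axis, with 95% counting intervals as bars, the grey band at less than 2-fold in either direction and the dashed line at the median of all measured genes (1.42-fold). Acaa2 lies farthest right at 9.17, and Acadl and Slc25a20 farthest left at 0.647 and 0.648.

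Activation and uptake genes include some of the most abundant members, and 1 of 2 measured genes in each of these groups passed 2-fold higher, against 26.2% of all measured genes. Acsl5 (NM_027976), the main long-chain acyl-CoA synthetase of the enterocyte, had 1027 reads in the dKO-labelled library and 732 in the control library, a ratio of 1.26 (1.15 to 1.39) that lay below 1 with TMM or upper-quartile scaling. Acsl1, another synthetase, had 86 reads in the dKO-labelled library and 34 in the control library, 2.28-fold higher (1.52 to 3.50). The acyl-CoA thioesterases Acot1 (cytosolic) and Acot2 (mitochondrial), which split acyl-CoA back to free fatty acid, were not measured. Acot1 had 27 reads in the dKO-labelled library and 4 in the control library, and Acot2 had 13 and 3. Of the 50-base stretches of Acot2, 24.5% also occur in Acot1, so these counts are uncertain.

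Slc27a4 (NM_011989), the principal fatty acid transport protein of the enterocyte, had 1414 reads in the dKO-labelled library and 1344 in the control library. Its ratio was 0.948 (0.879 to 1.02) with the deposited size factors, and its log2 ratio of -0.08 became -0.59 with TMM and -0.77 with the upper quartile. Slc27a2, a very-long-chain acyl-CoA synthetase of the same family, had 44 reads in the dKO-labelled library and 10 in the control library, 3.97-fold higher (1.97 to 8.84). Cd36, the fatty acid translocase, was listed through a single transcript (NM_001159558) with 0 reads in either library, which allows up to 3 reads, 0.000284% of the dKO-labelled library and 0.000387% of the control library. Other Cd36 transcripts were not analysed here.

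Among the genes of fuel choice, storage and regulation, Angptl4 (NM_020581) stood apart. This secreted inhibitor of lipoprotein lipase had 55 reads in the dKO-labelled library and 7 in the control library, 7.08-fold higher (3.22 to 18.4). Pdk4, the kinase that turns pyruvate dehydrogenase off when fat is burned, had 46 reads in the dKO-labelled library and 24 in the control library, a ratio of 1.73 (1.03 to 2.96). Plin2, the coat protein of lipid droplets, had 393 reads in the dKO-labelled library and 314 in the control library, a ratio of 1.13 (0.970 to 1.31) that lay below 1 with total-count, TMM or upper-quartile scaling. Creb3l3 (NM_145365), a membrane-bound transcription factor of lipid metabolism in liver and intestine, had 644 reads in the dKO-labelled library and 665 in the control library, 1.15-fold lower (1.03 to 1.28).

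Members with higher levels were less often past 2-fold in these 2 libraries, a description without a test. With a mean normalised count of at least 300, 1 of 6 members was at least 2-fold higher (16.7%), and it was Hadh. Between 100 and 300 the number was 9 of 13 (69.2%), and below 100 it was 10 of 11 (90.9%). All measured genes shared the trend at lower shares, with 7.83%, 17.7% and 33.9% at least 2-fold higher in the same classes. Spearman's rho between transcript length and log2 ratio, given as a description, was 0.05 over 29 measured members and -0.19 over 5922 measured genes, all from the same 2 libraries. Of 1871 measured genes as long as the middle range of the members (1888 to 3308 bases), 28.9% had at least a 2-fold higher level, against 66.7% of the members.

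**Figure D3:**
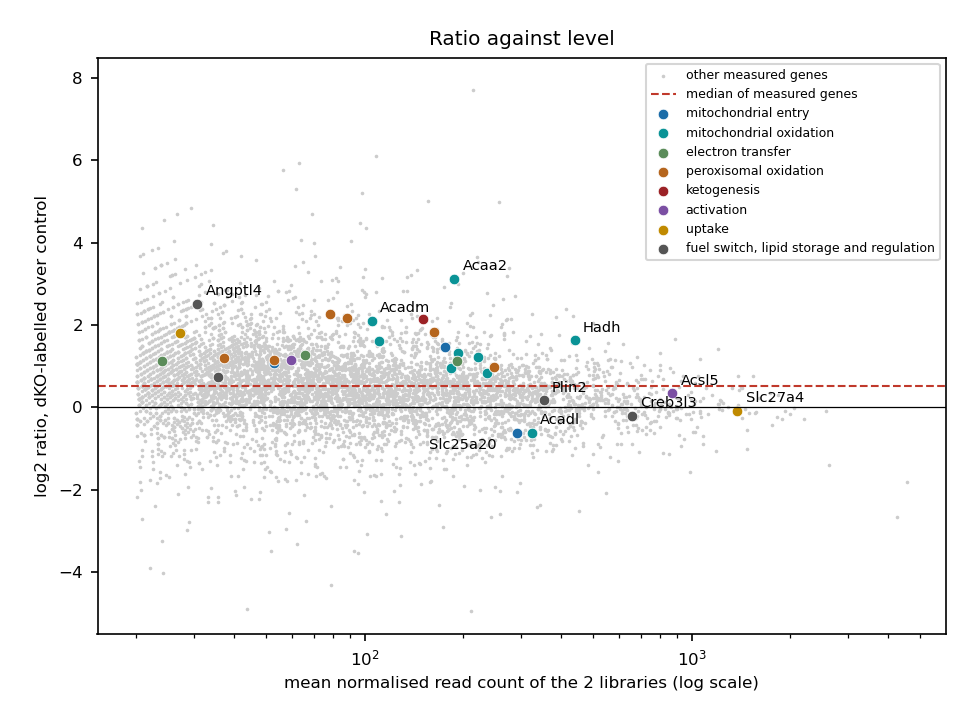
Log2 ratio of normalised counts, dKO-labelled over control, against the mean normalised count of both libraries (log axis) for the members, coloured by role, and all other measured genes in grey, with the dashed line at the median log2 ratio of 0.51. Members with high levels, such as Slc27a4, Acsl5 and Creb3l3, lie near 0, whereas most members of intermediate level lie above the dashed line.

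Levels per length ordered the members differently in each library. In the dKO-labelled library Hadh (371 normalised reads per kilobase) was followed by Slc27a4 (331), Creb3l3 (267), Acsl5 (230.0) and Acaa2 (224). In the control library Slc27a4 (349) was followed by Creb3l3 (306), Acadl (205), Slc25a20 (198) and Acsl5 (182). Acaa2 was at 25 there, and Acadl and Slc25a20 were at 133 and 129 in the dKO-labelled library. With 1 library per genotype, neighbours in these orders cannot be separated from the spread between animals.

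Further genes of the pathway, from lists that are not members, gave the following counts, to be read against the 26.2% and 4.18% of all measured genes past 2-fold higher and lower. Of 13 measured peroxisomal genes outside the members, 7 passed 2-fold higher and 0 passed 2-fold lower (median log2 ratio 1.30). They were led by Eci3, an enoyl-CoA isomerase with 62 reads in the dKO-labelled library and 8 in the control library (6.99-fold, 3.33 to 16.9), and by catalase, Cat, with 258 and 40 (5.81-fold, 4.16 to 8.33). Eci3 met the minimum mean only through the dKO-labelled library, so its call is not independent of the filter. The acyl-CoA carrier Abcd3 had 219 reads in the dKO-labelled library and 54 in the control library (3.66-fold, 2.70 to 5.02). Of 7 measured genes of peroxisome biogenesis, 3 passed 2-fold higher and 0 passed 2-fold lower, at a median log2 ratio of 0.52, close to that of all measured genes.

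Of 16 further measured genes of mitochondrial oxidation and carnitine transport, 7 passed 2-fold higher and 1 passed 2-fold lower (median log2 ratio 0.86). Echs1, the short-chain enoyl-CoA hydratase, had 179 reads in the dKO-labelled library and 51 in the control library (3.16-fold, 2.31 to 4.41). The carnitine transporter Slc22a21 was the lower one, with 10 reads in the dKO-labelled library and 52 in the control library, 5.77-fold lower (2.90 to 12.7). Slc22a21 met the minimum mean only through the control library. Of 12 further genes of activation, binding and uptake, 6 passed 2-fold higher and 0 passed 2-fold lower (median log2 ratio 0.99). The acetyl-CoA synthetases Acss2 and Acss1 led them, with 42 reads in the dKO-labelled library and 3 in the control library for Acss2 (12.6-fold, 4.03 to 63.6) and 100 and 11 for Acss1 (8.19-fold, 4.39 to 16.9). Both synthetases met the minimum mean only through the dKO-labelled library, so their calls are not independent of the filter.

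Regulators of fat oxidation were past 2-fold about as often as all measured genes. Of 12 measured genes, 3 passed 2-fold higher (25%, against 26.2%) and 0 passed 2-fold lower, and their median log2 ratio of 0.14 was 0.36 below that of the measured genes. Higher were Hnf4g, a nuclear receptor of the gut epithelium, with 250 reads in the dKO-labelled library and 58 in the control library (3.89-fold, 2.91 to 5.26), and the catalytic subunits of AMP-activated kinase, Prkaa2 (3.54-fold) and Prkaa1 (3.36-fold). Prkaa2, with 55 reads in the dKO-labelled library and 14 in the control library, met the minimum mean only through the dKO-labelled library. The acetyltransferase gene Ep300 had 116 reads in the dKO-labelled library and 188 in the control library, 1.8-fold lower (1.42 to 2.29). Ppara had 1 read in the dKO-labelled library and 0 in the control library in the higher of its 2 rows, a level at which no ratio can be given.

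Set beside pathways that share the mitochondrion or lipid metabolism, the share of members past 2-fold lay among theirs. At least 2-fold higher were 20 of 30 members (66.7%), 11 of 14 cholesterol synthesis genes (78.6%), 7 of 12 TCA cycle genes (58.3%) and 28 of 67 respiratory chain genes (41.8%), against the 26.2% of all measured genes. None of these lists had a gene at least 2-fold lower. The median log2 ratios were 1.17 for the members, 1.79 for cholesterol synthesis, 1.37 for the TCA cycle and 0.86 for the respiratory chain. With the median of measured genes subtracted, 10 of 30 members and 10 of 14 cholesterol synthesis genes were at least 2-fold higher. For the TCA cycle it was 6 of 12 and for the respiratory chain 6 of 67, against 11.8% of measured genes. On the same scale the members had 2 genes at least 2-fold lower, Acadl and Slc25a20, whereas the other lists had 0. These differences between lists were not tested.

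**Figure D4:**
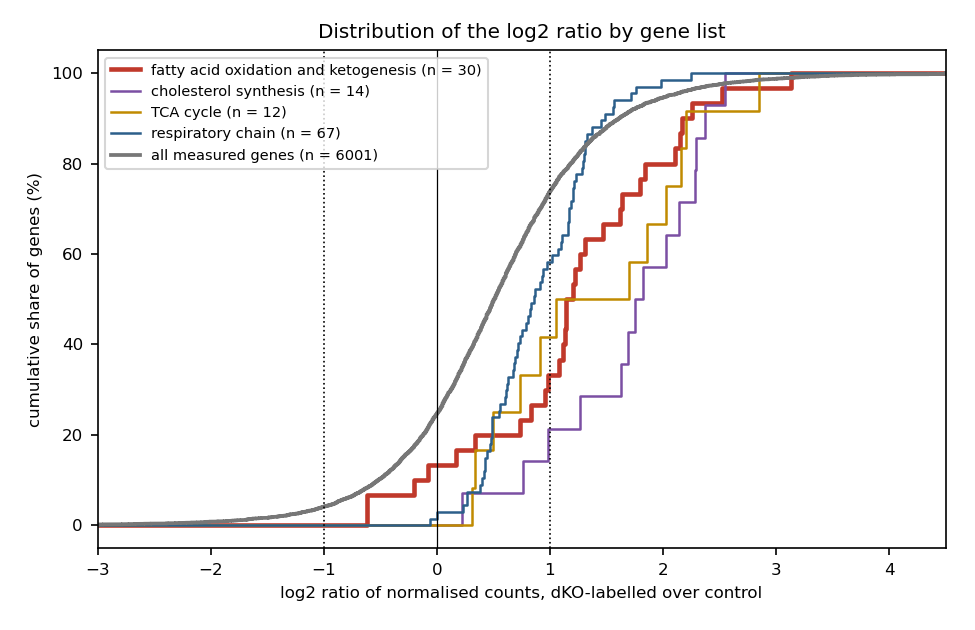
Cumulative share of genes (percent) by log2 ratio of normalised counts, dKO-labelled over control, for the members, 3 related lists and all measured genes, with dotted lines at 2-fold in either direction. The curve of the members runs to the right of that of all measured genes up to its highest member, Acaa2 at 3.13, and starts with Acadl and Slc25a20 at -0.62 each. A few measured genes lie beyond the axis.

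Markers of other cell types were summed by list, and their part in the results was not tested. Fibroblast and smooth muscle markers had 786 reads in the dKO-labelled library and 239 in the control library over 15 genes. The ratio was 2.96 (2.56 to 3.44), with Dcn at 0 in both libraries. Mylk held much of this, with 311 reads in the dKO-labelled library and 152 in the control library (1.84-fold, 1.51 to 2.25). Of the other measured markers, Acta2 (21.6-fold, 7.11 to 107), Col1a1 (9.69-fold), Col3a1 (8.11-fold), Col1a2 (6.41-fold) and Des (4.28-fold) lay above the summed ratio. Tagln (2.19-fold) and Vim (1.62-fold) lay below it, as did Mylk. Of 8 measured markers, 6 passed 2-fold higher (75%, against 26.2% of all measured genes) and 0 passed 2-fold lower. Among the 6, all but Tagln met the minimum mean only through the dKO-labelled library, so their calls and this share are not independent of the filter. Adipocyte markers, whose cells also handle fat, summed to 466 reads in the dKO-labelled library and 397 in the control library over 7 genes, a ratio of 1.06 (0.923 to 1.21), with 3 of them at 0 in the dKO-labelled library and 5 in the control library. Cidec, a lipid droplet gene, held most of this, with 442 reads in the dKO-labelled library and 393 in the control library. The other 6 summed to 24 reads in the dKO-labelled library and 4 in the control library, a ratio of 5.41 (1.86 to 21.4), with Fabp4 at 12 and 4, Cfd at 11 and 0, and Adipoq at 1 and 0. Hepatocyte markers summed to 19 reads in the dKO-labelled library and 14 in the control library over 7 genes, and pancreatic acinar markers to 42 and 17 over 6. Endothelial markers summed to 55 reads in the dKO-labelled library and 66 in the control library over 8 genes, a ratio of 0.751 (0.515 to 1.09). Tie1 alone had 5 reads in the dKO-labelled library and 48 in the control library, and the other 7 summed to 50 in the dKO-labelled library and 18 in the control library, a ratio of 2.5 (1.44 to 4.56). Immune markers summed to 143 reads in the dKO-labelled library and 84 in the control library over 10 genes. Goblet cell markers summed to 4523 in the dKO-labelled library and 5439 in the control library over 8 genes, a ratio of 0.75 (0.72 to 0.78). The markers were mixed, with log2 ratios above 0 for 4 and below 0 for 4. The lowest were Fcgbp, with 1031 reads in the dKO-labelled library and 1872 in the control library, and Muc2, with 671 and 1155. The highest was Spdef, with 73 and 28. Sums without the marker with the most control reads were added after the values were seen.

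An exact binomial test on the reads, which compares the 2 libraries and not the genotypes, called 25 members higher and 3 lower, against 50.2% and 11.6% of measured genes (Benjamini-Hochberg adjusted over all measured genes). In the authors' deposited table, Acaa2 was the single member with an unadjusted p-value under 0.05, at 0.0275 with a deposited fold of 8.94. Over all measured genes, the authors' deposited table had such p-values for 1.38% that were higher and 0.267% that were lower. The next in the authors' deposited table was Angptl4, at 0.0974. With 1 library per genotype these p-values rest on no replicate spread.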

How the data were processed

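Messenger RNA of villi was sequenced from 1 library per genotype, prepared with a TruSeq RNA kit per the labels. The submitters' processing notes name TopHat, DESeq and the mm9 build without versions. How reads were counted, and with which strand setting, is not given in the sources used here. Signal values deposited by the authors are base means, that is normalised counts, per the file headers, for 22040 RefSeq transcripts. All values (100% within 0.001 of a step) were whole multiples of the smallest value, 0.9494 in the dKO-labelled and 1.0533 in the control library. Reads were recovered as steps minus 1, a reading of the values alone. The authors deposited a fold (ratio), its log2 and an unadjusted p-value.

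The highest-mean row represented each symbol. The main measure was log2((dKO-labelled + 1)/(control + 1)) of normalised counts, at a mean of at least 20, called by size at 2-fold. Folds in the text compare recovered reads after division by the size factor ratio of 1.11, with 95% Clopper-Pearson intervals. Transcript lengths and shared 50-base stretches came from GENCODE M21. Members and lists were chosen with earlier results of these data known. All members were named, and up to 4 genes of other lists with the largest absolute log2 ratio, besides Ppara, chosen after its values were seen. Some genes that this rule names are not reported here. Scaling, pseudocount, filters, rows and call rules were varied. Scripts were tested on simulated data. Python 3.11.15, pandas 2.3.3, numpy 2.4.6, scipy 1.17.1, matplotlib 3.10.9, R 4.3.3 and edgeR 4.0.16 (TMM scaling) were used.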

Additional observations from a re-analysis of the deposited data

How the results depend on the processing

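No paired analysis was possible because there was 1 library per genotype and hence no second replicate in either group to leave out or to pair. Depth limits the low members: Pex11a, Bdh1, Acot1 and Acot2 had fewer than 30 reads in either library. Members at least 2-fold higher numbered 20 and lower 0, with a median log2 ratio of 1.17. The counts were 12 and 0 with total counts (median 0.88), 8 and 2 by upper-quartile scaling (0.50), 10 and 2 by TMM (0.67), and 10 and 2 with the median of measured genes set to 0 (0.67). These scalings shift every log2 ratio by about -0.30, -0.69 and -0.52, and the last one down by the median of 0.51, and all measured genes at least 2-fold higher then numbered 972, 477, 664 and 711, against 1574. Those at least 2-fold lower numbered 436, 903, 652 and 626, against 251. Measured genes in these settings numbered 5956, 5919, 5938 and 6001, against 6001. Plin2 and Acsl5, above 0 with the deposited size factors, lay below 0 with the upper quartile, TMM and the median set to 0, and Plin2 also with total counts. A pseudocount of 5 gave a median of 1.09. At a mean of at least 100, 10 members of 19 were higher, against 358 of 2414 measured genes. With the counting interval wholly beyond 2-fold 10 were higher, against 627 of 6001. By the authors' unadjusted p-values 1 was higher. An exact binomial test on the reads, which compares the libraries alone, called 25 higher and 3 lower, the 3 being Acadl, Slc25a20 and Creb3l3, against 3013 and 698 of all measured genes. With no filter, summed rows or the added read taken off, both counts and the median stayed close to these values.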

Other observations

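Of 6 measured genes of lipid storage and lipolysis, 0 passed 2-fold higher (against 26.2% of all measured genes) and 0 passed 2-fold lower (against 4.18%), and their median log2 ratio was -0.05. Dgat2, which closes triglyceride synthesis, had 482 reads in the dKO-labelled library and 812 in the control library, 1.87-fold lower (1.67 to 2.10), and its isoenzyme gene Dgat1 had 715 and 813, 1.26-fold lower (1.14 to 1.40). Of 7 measured fatty acid synthesis genes, 2 passed 2-fold higher (28.6%, against the same 26.2%) and 0 passed 2-fold lower, with a median log2 ratio of 0.81, and 6 of 7 lay above the median of all measured genes. The 2 past 2-fold higher were the elongase Elovl5, with 35 reads in the dKO-labelled library and 5 in the control library (6.31-fold, 2.46 to 20.6), and fatty acid synthase, Fasn, with 56 and 16 (3.15-fold, 1.78 to 5.89). Both met the minimum mean only through the dKO-labelled library, so their calls are not independent of the filter.

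A list of omega-oxidation and other PPAR target genes had 18 genes with a row, of which 8 were measured. In the dKO-labelled library 5 had 0 reads, and in the control library 6. Past 2-fold higher were 4 of 8 measured genes (50%, against 26.2%), namely Pdk2, Pdk3, Aldh3a2 and Ucp2. None passed 2-fold lower, 1 had a log2 ratio below 0, and the median log2 ratio was 1.07. Pdk2, a second pyruvate dehydrogenase kinase, had 253 reads in the dKO-labelled library and 51 in the control library, 4.47-fold higher (3.30 to 6.17), against 1.73 for Pdk4. The uncoupling protein gene Ucp2 had 844 reads in the dKO-labelled library and 342 in the control library (2.22-fold, 1.96 to 2.53).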
